A study of Saccharomyces cerevisiae with 12 samples.

Results

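The enzymes of glycolysis and alcoholic fermentation were described in *Saccharomyces cerevisiae*, as the 39 of 7112 rows of the count table whose gene symbol belongs to a list of glycolytic, fermentative, acetate- and glycerol-forming enzymes. All 39 passed the filter on low counts and were tested. The study asked how potassium limitation and deletion of *SIS2*, which encodes an inhibitor of the protein phosphatase Ppz1, bear on mitochondrial function, and RNA was sequenced from cultures of 2 strains at 2 potassium concentrations, with 3 cultures in each of 4 groups. The mutant (*sis2*Δ, strain CGY41.34, genotype *MATa sis2d0::kanMX*) and the wild type (WT, strain CGY41.30, genotype *MATa*) were each grown in 0.5 mM KCl (low potassium) and in 7.35 mM KCl (standard potassium). Every culture was first grown to saturation at standard potassium in synthetic complete medium with glucose. It was then diluted into medium of the stated potassium concentration and kept in exponential growth at low density for a day. The paper's potassium titrations used a custom base medium free of potassium. Doubling times in the paper rose as potassium was reduced, and the part of growth rate in the results was not tested. Each strain is a single construct, so that the strain and the *SIS2* genotype cannot be told apart.

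Glycolysis splits glucose into pyruvate and yields ATP and NADH. In yeast growing on ample glucose, pyruvate decarboxylase and alcohol dehydrogenase turn most pyruvate into ethanol, which regenerates NAD+, while smaller flows leave towards glycerol, acetate, oxaloacetate and the mitochondrion. Many steps have a major enzyme that is abundant on glucose and minor isozymes that are known to be made mainly when glucose is scarce, in stationary phase or under stress.

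Each library held between 35451323 and 46543107 counts. *SIS2* had 39.5 to 88.5 counts in the *sis2*Δ libraries and 3119.5 to 3807.5 counts in the WT libraries as the labels state. The 5 markers of a cells lay between 106 and 800 CPM (counts scaled to a common library size) and the 4 markers of alpha cells between 0.274 and 45.5 CPM, so the labelled mating type was seen and no marker was at 0. The alpha markers summed to 67.5 to 73.9 CPM in *sis2*Δ and 70.6 to 71.0 CPM in WT at 0.5 mM KCl, against 50.8 to 52.5 CPM in *sis2*Δ and 45.2 to 47.7 CPM in WT at 7.35 mM KCl. In that comparison 3 of 4 rose in *sis2*Δ and 4 of 4 in WT, against 24.2% of all genes in *sis2*Δ and 24.1% in WT. The a markers summed to 2143 to 2290 CPM in *sis2*Δ and 2096 to 2646 CPM in WT at 0.5 mM KCl, against 1783 to 1924 CPM in *sis2*Δ and 1766 to 1815 CPM in WT at 7.35 mM KCl, and 2 of 5 rose in *sis2*Δ and 3 of 5 in WT. The part of either list in the results was not tested. Replicate 2 of *sis2*Δ at 0.5 mM KCl stood apart from the other libraries of its group: without it, the number of genes of all kinds called between the strains at 0.5 mM KCl was 440, against 119 with it.

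The coding sequences show where isozymes of a step differ. They are printed because the largest changes below lay in minor isozymes beside abundant partners. *TDH1*, *TDH2* and *TDH3* encode glyceraldehyde-3-phosphate dehydrogenase (GAPDH), and their coding sequences of 999 bases differed at 125 positions. Bases 64 to 123 (R64 reference) held 21 of these, and capitals mark the positions that the 3 genes do not all share:
TDH1 chrX:338334-338393 (+): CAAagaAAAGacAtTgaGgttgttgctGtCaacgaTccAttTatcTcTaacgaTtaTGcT
TDH2 chrX:454559-454618 (-): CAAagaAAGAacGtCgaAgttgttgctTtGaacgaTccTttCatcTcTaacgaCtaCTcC
TDH3 chrVII:883688-883747 (-): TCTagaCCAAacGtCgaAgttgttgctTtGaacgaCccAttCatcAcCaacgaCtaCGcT
The enolases *ENO1* and *ENO2* differed at 68 of 1314 positions, 13 of them in bases 340 to 399, again in capitals:
ENO1 chrVII:1001266-1001325 (+): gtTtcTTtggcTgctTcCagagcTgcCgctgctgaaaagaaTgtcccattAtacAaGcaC
ENO2 chrVIII:451666-451725 (+): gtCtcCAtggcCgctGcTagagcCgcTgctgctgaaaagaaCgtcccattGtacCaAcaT

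Over the whole coding sequence, identity was 95.8% for *TDH2* and *TDH3*, 90.2% for *TDH1* and *TDH2*, 88.9% for *TDH1* and *TDH3*, and 94.8% for *ENO1* and *ENO2*. Of all stretches of 150 bases, a length set for this search, 2.82% were identical between *TDH2* and *TDH3*. *ALD2* and *ALD3* shared 15.9% of such stretches, *ADH1* and *ADH2* shared 4.45%, and *PYC1* and *PYC2* shared 1.51%, so values of these pairs are less certain. The pairs *TDH1* and *TDH3*, *ENO1* and *ENO2*, *HXK1* and *HXK2*, and *PDC1* and *PDC5* shared none. Shorter stretches were not searched, so how far reads of these pairs can be told apart was not tested. All 39 genes are a single coding exon without an intron in the R64 annotation.

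The regions upstream of 3 pairs of isozymes are shown for the same reason, since each pair joins a gene that rose with low potassium to the more abundant gene of its step. Each window of 300 bases ended 100 bases before the start codon on the gene's strand. Capitals mark matches to 3 motifs, searched on both strands. They are CTTCC, which reads GGAAG on the other strand and is the core of the site of the glycolytic activator Gcr1. The stress response element bound by Msn2 and Msn4 is AGGGG, or CCCCT on the other strand. The box bound by the Hap complex is CCAAT, or ATTGG on the other strand:
HXK1 chrVI:255150-255449 (-): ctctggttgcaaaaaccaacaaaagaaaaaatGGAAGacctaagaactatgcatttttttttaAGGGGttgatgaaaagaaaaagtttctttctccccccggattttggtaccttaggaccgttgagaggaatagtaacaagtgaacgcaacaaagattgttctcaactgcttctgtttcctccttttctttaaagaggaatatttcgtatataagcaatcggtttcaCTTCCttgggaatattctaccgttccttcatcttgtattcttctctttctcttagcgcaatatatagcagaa
HXK2 chrVII:23535-23834 (+): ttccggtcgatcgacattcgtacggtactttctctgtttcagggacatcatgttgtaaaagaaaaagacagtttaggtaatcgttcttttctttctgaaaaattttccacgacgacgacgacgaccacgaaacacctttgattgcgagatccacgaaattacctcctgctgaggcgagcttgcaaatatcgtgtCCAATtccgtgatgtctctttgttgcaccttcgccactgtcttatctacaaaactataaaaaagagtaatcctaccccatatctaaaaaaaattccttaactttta
TDH1 chrX:337871-338170 (+): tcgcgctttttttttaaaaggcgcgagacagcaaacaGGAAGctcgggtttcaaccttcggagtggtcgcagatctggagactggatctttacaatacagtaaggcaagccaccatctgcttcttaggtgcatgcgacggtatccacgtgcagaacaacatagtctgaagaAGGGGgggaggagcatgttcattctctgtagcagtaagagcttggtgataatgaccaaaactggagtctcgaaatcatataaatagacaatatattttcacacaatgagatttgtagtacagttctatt
TDH3 chrVII:883911-884210 (-): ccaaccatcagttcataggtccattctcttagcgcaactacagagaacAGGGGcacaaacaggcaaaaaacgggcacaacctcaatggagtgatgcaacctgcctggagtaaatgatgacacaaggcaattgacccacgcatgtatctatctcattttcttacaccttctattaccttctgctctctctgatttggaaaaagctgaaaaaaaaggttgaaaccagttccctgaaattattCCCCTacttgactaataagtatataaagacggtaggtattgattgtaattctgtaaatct
ENO1 chrVII:1000527-1000826 (+): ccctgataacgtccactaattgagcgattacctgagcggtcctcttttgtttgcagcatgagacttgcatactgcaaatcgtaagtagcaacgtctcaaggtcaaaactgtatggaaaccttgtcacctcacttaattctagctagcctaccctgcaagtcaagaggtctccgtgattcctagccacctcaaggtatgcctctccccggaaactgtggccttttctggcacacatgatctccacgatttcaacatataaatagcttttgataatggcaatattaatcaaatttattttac
ENO2 chrVIII:450927-451226 (+): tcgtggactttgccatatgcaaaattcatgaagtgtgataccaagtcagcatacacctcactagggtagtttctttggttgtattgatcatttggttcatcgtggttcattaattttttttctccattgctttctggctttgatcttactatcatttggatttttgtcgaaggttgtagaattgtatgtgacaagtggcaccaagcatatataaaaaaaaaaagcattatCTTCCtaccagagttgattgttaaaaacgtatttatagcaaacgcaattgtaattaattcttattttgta

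No match overlapped another in these windows. The *HXK1* window held 2 CTTCC and 1 AGGGG, the *TDH1* window 1 of each, the *TDH3* window 2 AGGGG, the *ENO2* window 1 CTTCC and the *HXK2* window 1 CCAAT, while the *ENO1* window held none of the 3 motifs. Of the *TDH1* window 120 bases, and of the *ENO2* window 227 bases, lie in coding sequence of a neighbouring gene. CTTCC was present in 22 of the 39 windows (56.4%), against 47% of 6007 windows over the genome. AGGGG was present in 20 of 39 (51.3%), against 23.6%, and CCAAT in 13 of 39 (33.3%), against 43.9%. A match is a run of letters and not a measured binding site, and bases outside the windows were not searched.

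The 39 genes together took a large share of all counts. At 0.5 mM KCl they held 18.02, 16.08 and 17.96% of counts in *sis2*Δ and 17.26, 16.66 and 16.73% in WT. The shares at 7.35 mM KCl were 14.59, 15.52 and 14.87% in *sis2*Δ and 15.31, 15.5 and 15.11% in WT, so that in both strains every library at low potassium lay above every library at standard potassium. Levels of different genes were compared as CPM per kilobase of coding length (CPM per kb). *TDH3* was the most abundant in WT at 7.35 mM KCl with 37000 ± 1294 CPM per kb (SD, n = 3), and took 3.61 to 4.83% of all counts in the 12 libraries.

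Below *TDH3*, in WT at 7.35 mM KCl, followed *ENO2* with 18850 ± 281 CPM per kb, *ADH1* with 13490 ± 255 CPM per kb, *FBA1*, which encodes aldolase, with 11780 ± 503 CPM per kb and *PDC1*, the main pyruvate decarboxylase, with 11610 ± 177 CPM per kb. *FBA1* and *PDC1* differed by less than their spread. *TPI1* (triose phosphate isomerase), *PGK1* (phosphoglycerate kinase), *GPM1* (phosphoglycerate mutase), *CDC19* (pyruvate kinase) and *TDH2* lay between 4811 ± 140 and 7986 ± 139 CPM per kb. The next gene, *PGI1* (phosphoglucose isomerase), was at 1383 ± 42.7 CPM per kb. The lowest levels were those of *GPM2*, with 6.12 ± 0.247 CPM per kb, and *PDC6*, with 0.852 ± 0.142 CPM per kb (SD, n = 3 each).

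Low potassium raised the RNA of most of these genes, and the largest rises were those of minor isozymes: *TDH1*, *HXK1* and *ENO1*. In *sis2*Δ, 23 of 39 genes rose at 0.5 mM KCl and none fell. In WT, 21 rose and 3 fell, and the number that fell was 5 without WT replicate 1 at 0.5 mM KCl or *sis2*Δ replicate 2 at 0.5 mM KCl and 1 without WT replicate 2 at 0.5 mM KCl. Among all 6691 genes tested, 24.2% rose and 21.7% fell in *sis2*Δ, and 24.1% rose and 23.2% fell in WT. The median log2 fold change of the 39 genes was 0.22 in *sis2*Δ and 0.24 in WT, against 0.00 over all genes tested in either strain. The 3 libraries at 0.5 mM KCl did not overlap the 3 at 7.35 mM KCl for 22 of the 39 genes in *sis2*Δ, against 52.8% of all genes, and for 28 in WT, against 56.3% of all genes. The strains shared no libraries here. Since RNA came from whole cultures, fewer cells with a transcript and less of it per cell cannot be told apart, and CPM says nothing of RNA per cell.

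**Figure D1:**
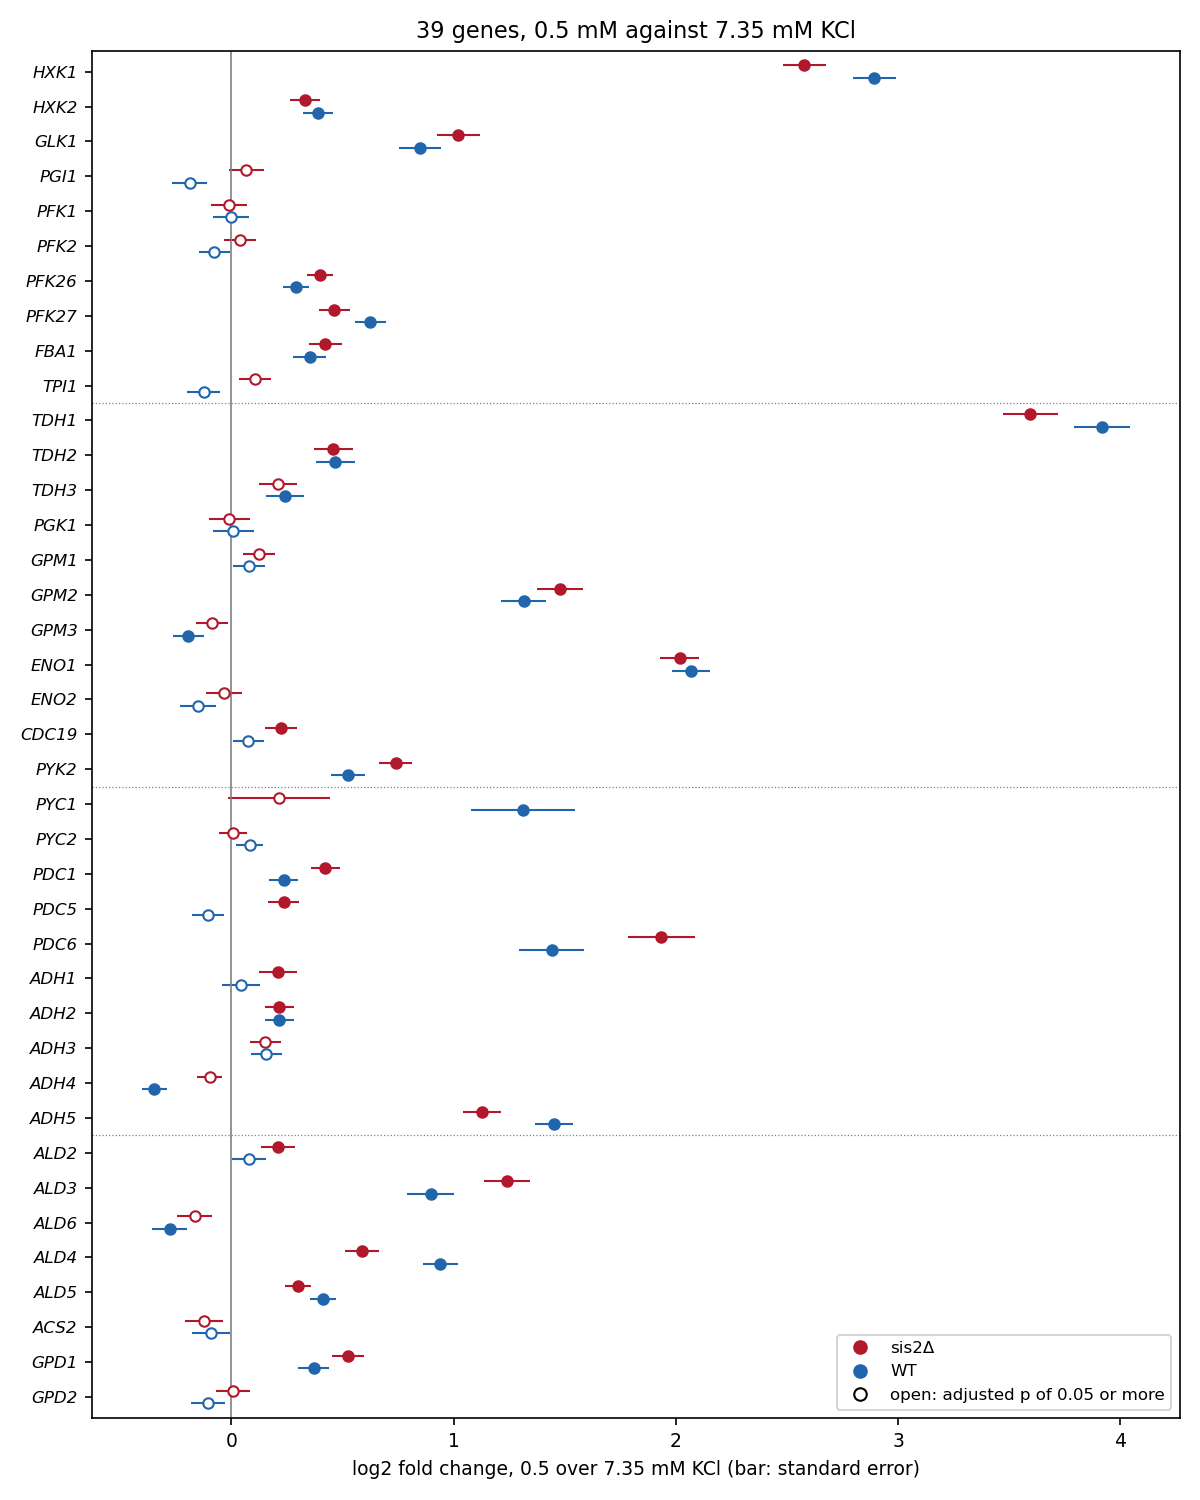
Log2 fold changes at 0.5 over 7.35 mM KCl (x axis) of the 39 genes, grouped by role (y axis), in *sis2*Δ (red) and WT (blue), with standard errors as bars and open symbols where the adjusted p was 0.05 or more. *TDH1*, *HXK1* and *ENO1* lie farthest to the right in both strains, at log2 fold changes of 2.02 to 3.92.

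Glucose is phosphorylated by hexokinase 2 (*HXK2*), the main enzyme on glucose and a part of glucose repression, and by hexokinase 1 (*HXK1*) and glucokinase (*GLK1*), which are known to be repressed by glucose. *HXK1* (YFR053C, chrVI:253592-255049) had 616, 554.5 and 669 CPM in *sis2*Δ and 514.5, 517.5 and 618 CPM in WT at 0.5 mM KCl. At 7.35 mM KCl it had 107, 89.7 and 111 CPM in *sis2*Δ and 69.9, 82.8 and 69.3 CPM in WT. The groups at the 2 concentrations did not overlap in either strain. *HXK1* rose 5.97-fold in *sis2*Δ (log2 fold change 2.58, SE 0.0967, edgeR adjusted p = 6.34e-15) and 7.43-fold in WT (2.89, SE 0.0983, adjusted p = 7.33e-16). *GLK1* had 702, 535 and 765 CPM in *sis2*Δ and 534, 548 and 564.5 CPM in WT at 0.5 mM KCl. In 7.35 mM KCl these were 305, 335 and 347 CPM in *sis2*Δ and 303, 332 and 278 CPM in WT. It rose by 1.02 on the log2 scale in *sis2*Δ (SE 0.0959, adjusted p = 2.41e-08) and by 0.85 in WT (SE 0.0957, adjusted p = 2.64e-07), without overlap.

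The more abundant *HXK2* moved less: it had 1907, 1751 and 1836 CPM in *sis2*Δ and 2064, 1821 and 1920 CPM in WT at 0.5 mM KCl. The 7.35 mM KCl cultures had 1582, 1421 and 1362 CPM in *sis2*Δ and 1459, 1507 and 1467 CPM in WT. Its log2 fold change was 0.33 in *sis2*Δ (SE 0.0681, adjusted p = 0.000456) and 0.39 in WT (SE 0.0681, adjusted p = 7.78e-05). As a share of the 3 glucose kinases per kb, *HXK1* made up 19.8 ± 0.709% in *sis2*Δ and 18.2 ± 1.71% in WT at 0.5 mM KCl, against 5.48 ± 0.633% in *sis2*Δ and 4.01 ± 0.285% in WT at 7.35 mM KCl (SD, n = 3 each). *HXK2* stayed the most abundant of the 3, with 59.3 ± 2.73% in *sis2*Δ and 64.1 ± 2.29% in WT at 0.5 mM KCl, against 77.4 ± 2.23% and 80 ± 1.2% at 7.35 mM KCl. Counts summed over the 3 genes and tested in place of the single genes rose by 0.72 on the log2 scale in *sis2*Δ (SE 0.0679, adjusted p = 2.38e-08) and by 0.71 in WT (SE 0.0679, adjusted p = 2.35e-08).

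**Figure D2:**
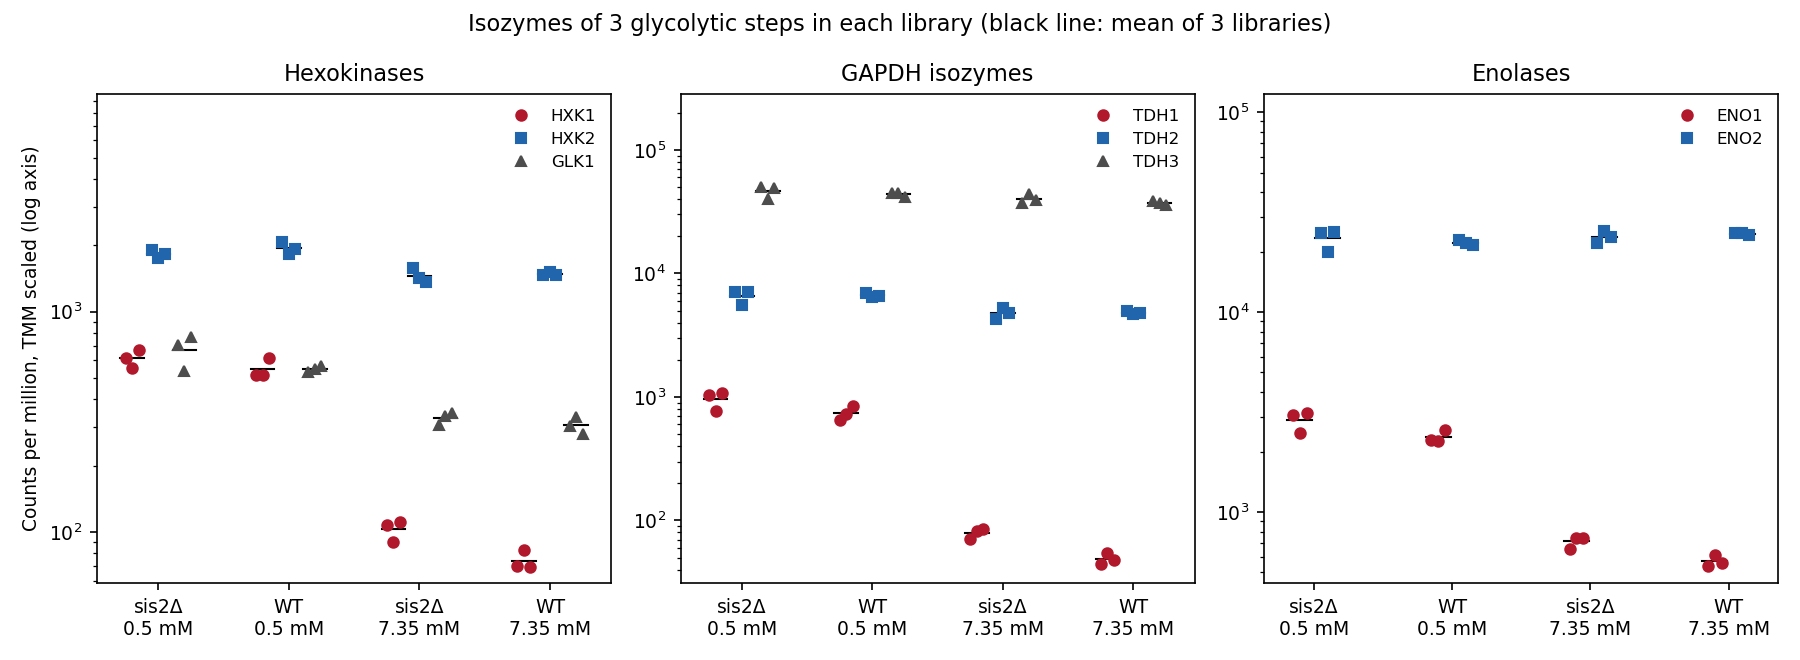
CPM on a log axis (y) of the hexokinases, GAPDH isozymes and enolases in each library, for *sis2*Δ and WT at 0.5 mM KCl and then at 7.35 mM KCl (x), with black lines at the mean of 3 libraries. *HXK1*, *TDH1* and *ENO1* stand higher in all 6 low-potassium libraries than in any library at 7.35 mM KCl, while *TDH3*, *ENO2* and *HXK2* stay the most abundant of their steps.

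Further down the upper part of the pathway, *PFK26* and *PFK27* rose and the main 6-phosphofructokinase did not pass the test. *PFK26* and *PFK27* encode 6-phosphofructo-2-kinases, which make fructose 2,6-bisphosphate, the activator of 6-phosphofructokinase. *PFK27* had 97.3, 98.7 and 88.9 CPM in *sis2*Δ and 93.7, 85.5 and 93.1 CPM in WT at 0.5 mM KCl. The values at 7.35 mM KCl were 72.7, 67.1 and 66.5 CPM in *sis2*Δ and 63.6, 60.6 and 52.2 CPM in WT. It rose by 0.46 on the log2 scale in *sis2*Δ (SE 0.0694, adjusted p = 1.48e-05) and by 0.63 in WT (SE 0.0698, adjusted p = 2.3e-07). *PFK26*, which lay between 24.8 and 35.8 CPM in all libraries, rose by 0.40 in *sis2*Δ (adjusted p = 1.3e-05) and by 0.29 in WT (adjusted p = 0.000346). The 2 subunits of 6-phosphofructokinase, *PFK1* and *PFK2*, changed by at most 0.08 on the log2 scale in size and were not called in either strain (adjusted p of 0.398 to 0.998).

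*FBA1* (aldolase) rose by 0.42 in *sis2*Δ (SE 0.0738, adjusted p = 8.95e-05) and by 0.35 in WT (SE 0.0738, adjusted p = 0.000504). It had 17660, 15060 and 18030 CPM in *sis2*Δ and 16370, 15300 and 17060 CPM in WT at 0.5 mM KCl. At 7.35 mM KCl it had 12570, 12800 and 12490 CPM in *sis2*Δ and 12100, 13030 and 13050 CPM in WT, without overlap between the concentrations. *TPI1* had log2 fold changes of 0.11 in *sis2*Δ (adjusted p = 0.248) and -0.12 in WT (adjusted p = 0.173), and *PGI1* of 0.07 in *sis2*Δ (adjusted p = 0.504) and -0.19 in WT (adjusted p = 0.0567). With the replicate number as a block, *PGI1* in WT was called lower (adjusted p = 0.0281), as it was without WT replicate 1 at 0.5 mM KCl (adjusted p = 0.0338), *sis2*Δ replicate 2 at 0.5 mM KCl (adjusted p = 0.0428) or *sis2*Δ replicate 1 at 7.35 mM KCl (adjusted p = 0.0374). The same held with library totals (adjusted p = 0.0271), DESeq2 (adjusted p = 0.0397) and only the compared libraries (adjusted p = 0.0444).

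Among the genes of GAPDH, the step that makes NADH, *TDH1* had the largest rise of the 39 genes in both strains. *TDH1* (YJL052W, chrX:338271-339269), the isozyme known from stationary phase and stress, had 1041, 767 and 1079 CPM in *sis2*Δ and 655, 722 and 850 CPM in WT at 0.5 mM KCl. In 7.35 mM KCl these were 71.2, 81.8 and 86.0 CPM in *sis2*Δ and 44.2, 54.8 and 48.2 CPM in WT. The lowest low-potassium library was thus far above the highest at standard potassium. *TDH1* rose 12.1-fold in *sis2*Δ (log2 fold change 3.59, SE 0.123, adjusted p = 1.61e-15) and 15.1-fold in WT (3.92, SE 0.126, adjusted p = 2.7e-16). *TDH2* had 7034, 5528 and 7039 CPM in *sis2*Δ and 6949, 6472 and 6514 CPM in WT at 0.5 mM KCl. The 7.35 mM KCl cultures had 4245, 5242 and 4775 CPM in *sis2*Δ and 4967, 4714 and 4737 CPM in WT. It rose by 0.46 in *sis2*Δ (SE 0.0872, adjusted p = 0.000217) and by 0.47 in WT (SE 0.0872, adjusted p = 0.000156).

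*TDH3* (YGR192C, chrVII:882812-883810), the main GAPDH, had 50290, 39910 and 48770 CPM in *sis2*Δ and 44890, 44720 and 41410 CPM in WT at 0.5 mM KCl. The values at 7.35 mM KCl were 36850, 43940 and 39460 CPM in *sis2*Δ and 38300, 36870 and 35720 CPM in WT. The 2 concentrations overlapped in *sis2*Δ and not in WT. Its log2 fold change was 0.21 in *sis2*Δ (SE 0.0857, adjusted p = 0.0516) and 0.24 in WT (SE 0.0857, adjusted p = 0.0253). The *sis2*Δ value was 0.30 (adjusted p = 0.00114) without replicate 2 at 0.5 mM KCl and 0.28 (adjusted p = 0.0201) without replicate 2 at 7.35 mM KCl. That value was also called with DESeq2 (adjusted p = 0.0294), library totals (adjusted p = 0.0221) and no low-count filter (adjusted p = 0.0466). The WT call was lost without WT replicates 1 or 2 at 0.5 mM KCl or 2 or 3 at 7.35 mM KCl (adjusted p of 0.0584 to 0.0836). *TDH1* made up 1.78 ± 0.118% of GAPDH RNA per kb in *sis2*Δ and 1.46 ± 0.254% in WT at 0.5 mM KCl, against 0.178 ± 0.0146% and 0.118 ± 0.0149% at 7.35 mM KCl. Summed GAPDH counts rose by 0.26 in *sis2*Δ (SE 0.0868, adjusted p = 0.0181) and by 0.29 in WT (SE 0.0868, adjusted p = 0.00943), and the *sis2*Δ call was lost without *sis2*Δ replicates 1 or 3 at either concentration (adjusted p of 0.0572 to 0.0984).

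At enolase, the glucose-repressed isozyme rose and the main one did not. *ENO1* (YGR254W, chrVII:1000927-1002240) had 3050, 2483 and 3137 CPM in *sis2*Δ and 2308, 2277 and 2565 CPM in WT at 0.5 mM KCl. At 7.35 mM KCl it had 655, 741 and 746 CPM in *sis2*Δ and 536, 609 and 560 CPM in WT. It rose 4.05-fold in *sis2*Δ (log2 fold change 2.02, SE 0.0866, adjusted p = 5.66e-14) and 4.19-fold in WT (2.07, SE 0.0868, adjusted p = 2.87e-14). *ENO2*, the isozyme known to be induced by glucose, had 25010, 20010 and 25160 CPM in *sis2*Δ and 23090, 22160 and 21660 CPM in WT at 0.5 mM KCl. In 7.35 mM KCl these were 22310, 25600 and 23840 CPM in *sis2*Δ and 25030, 24940 and 24350 CPM in WT. Its groups overlapped in *sis2*Δ and not in WT, with log2 fold changes of -0.03 (adjusted p = 0.778) in *sis2*Δ and -0.15 (adjusted p = 0.134) in WT. In WT, *ENO2* was called lower without *sis2*Δ replicate 2 at 0.5 mM KCl (adjusted p = 0.0278). The same held with library totals (adjusted p = 0.0241) and with only the compared libraries (adjusted p = 0.0187).

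The share of *ENO1* in enolase RNA per kb was 11 ± 0.114% in *sis2*Δ and 9.66 ± 0.808% in WT at 0.5 mM KCl, against 2.9 ± 0.119% and 2.24 ± 0.144% at 7.35 mM KCl (SD, n = 3 each). Summed over both genes, enolase was not called in either strain, with log2 fold changes of 0.09 in *sis2*Δ (adjusted p = 0.36) and -0.04 in WT (adjusted p = 0.737).

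*PGK1* and *GPM1* were not called in either strain, with log2 fold changes of -0.01 to 0.12. *GPM2* and *GPM3* are homologs of *GPM1* that are thought not to act as mutases. *GPM2* had 15.4, 12.1 and 17.0 CPM in *sis2*Δ and 14.7, 13.6 and 14.4 CPM in WT at 0.5 mM KCl. The 7.35 mM KCl cultures had 5.50, 4.96 and 5.50 CPM in *sis2*Δ and 5.64, 5.56 and 5.995 CPM in WT. It rose by 1.48 in *sis2*Δ (SE 0.103, adjusted p = 1.89e-10) and by 1.31 in WT (SE 0.102, adjusted p = 8.45e-10). *GPM3*, at 25.5 to 34.0 CPM, fell by 0.19 in WT (adjusted p = 0.0321) and had a log2 fold change of -0.09 in *sis2*Δ (adjusted p = 0.354). The WT call was lost without WT replicates 2 or 3 at 0.5 mM KCl (adjusted p = 0.0552 and 0.163) or replicate 1 at 7.35 mM KCl (log2 fold change -0.13, adjusted p = 0.205).

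Pyruvate kinase has a main enzyme, *CDC19*, and a minor isozyme, *PYK2*, that is known to be repressed by glucose. *PYK2* had 51.8, 43.6 and 54.4 CPM in *sis2*Δ and 45.6, 42.7 and 41.4 CPM in WT at 0.5 mM KCl. The values at 7.35 mM KCl were 31.5, 28.8 and 29.5 CPM in *sis2*Δ and 29.8, 32.4 and 27.9 CPM in WT, and did not overlap between the concentrations. It rose by 0.74 in *sis2*Δ (SE 0.075, adjusted p = 7.79e-08) and by 0.53 in WT (SE 0.0752, adjusted p = 7.08e-06). *CDC19*, at 6918 to 9157 CPM, rose by 0.22 in *sis2*Δ (adjusted p = 0.0147), and its log2 fold change in WT was 0.08 (adjusted p = 0.394). The *CDC19* call was lost without *sis2*Δ replicate 1 at 0.5 mM KCl or replicates 2 or 3 at 7.35 mM KCl (adjusted p of 0.0521 to 0.0868) and when only the compared libraries were fitted (adjusted p = 0.0506).

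In the fermentative branch, the minor pyruvate decarboxylase and an alcohol dehydrogenase of low abundance rose most. *PDC6*, a minor isozyme known from sulfur limitation, had 4.49, 4.43 and 4.84 CPM in *sis2*Δ and 4.32, 3.30 and 4.16 CPM in WT at 0.5 mM KCl. At 7.35 mM KCl it had 1.40, 0.943 and 1.21 CPM in *sis2*Δ and 1.71, 1.26 and 1.35 CPM in WT. It rose by 1.93 in *sis2*Δ (SE 0.15, adjusted p = 1.1e-09) and by 1.44 in WT (SE 0.147, adjusted p = 6.57e-08), and remained the lowest of the 39 genes per kb in every group. *PDC1* had 25210, 23040 and 24490 CPM in *sis2*Δ and 24360, 22350 and 22680 CPM in WT at 0.5 mM KCl. In 7.35 mM KCl these were 18380, 18150 and 17710 CPM in *sis2*Δ and 19770, 19870 and 19310 CPM in WT. Its groups did not overlap, and it rose by 0.42 in *sis2*Δ (SE 0.0652, adjusted p = 2.14e-05) and by 0.24 in WT (SE 0.0652, adjusted p = 0.00529).

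*PDC5*, a further pyruvate decarboxylase at 17.5 to 24.6 CPM, rose in *sis2*Δ (log2 fold change 0.23, adjusted p = 0.0107), while its value in WT was -0.10 (adjusted p = 0.233). The *PDC5* call was lost without *sis2*Δ replicate 2 at 7.35 mM KCl (adjusted p = 0.0575). *ADH5* (YBR145W, chrII:533762-534817) had 73.7, 59.1 and 79.0 CPM in *sis2*Δ and 100.6, 90.4 and 86.9 CPM in WT at 0.5 mM KCl. The 7.35 mM KCl cultures had 30.0, 33.5 and 33.5 CPM in *sis2*Δ and 34.2, 35.4 and 32.0 CPM in WT. It rose by 1.13 in *sis2*Δ (SE 0.086, adjusted p = 8.81e-10) and by 1.45 in WT (SE 0.0856, adjusted p = 9.8e-12).

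The main ethanol-forming enzyme, *ADH1*, had 16130, 12690 and 16440 CPM in *sis2*Δ and 14770, 14060 and 14850 CPM in WT at 0.5 mM KCl. The values at 7.35 mM KCl were 11910, 13970 and 13250 CPM in *sis2*Δ and 13820, 14250 and 14310 CPM in WT, with overlap in both strains. *ADH1* rose by 0.21 in *sis2*Δ, just past the threshold (SE 0.085, adjusted p = 0.0487), and its value in WT was 0.04 (adjusted p = 0.708). The *sis2*Δ value was 0.32 without *sis2*Δ replicate 2 at 0.5 mM KCl. That call was lost in 13 of 20 alternatives: with any of the 6 WT libraries left out (adjusted p of 0.0549 to 0.0645), without *sis2*Δ replicates 1 or 3 at either concentration (adjusted p of 0.0865 to 0.21), with DESeq2 size factors (adjusted p = 0.0554), with the replicate block (adjusted p = 0.0533) and with only the compared libraries (adjusted p = 0.132). *ADH2*, which oxidizes ethanol and is known to be repressed by glucose, lay between 20.6 and 27.4 CPM and rose by 0.22 in *sis2*Δ (adjusted p = 0.0092, or 0.0832 without *sis2*Δ replicate 3 at 0.5 mM KCl) and by 0.22 in WT (adjusted p = 0.00851).

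*ADH4*, an alcohol dehydrogenase unrelated in sequence to *ADH1*, moved the other way in WT. It had 71.0, 65.2 and 63.5 CPM in *sis2*Δ and 67.3, 63.4 and 66.6 CPM in WT at 0.5 mM KCl. At 7.35 mM KCl it had 74.8, 70.4 and 68.3 CPM in *sis2*Δ and 83.2, 83.2 and 84.4 CPM in WT. The WT groups were well apart, and *ADH4* fell by 0.35 on the log2 scale in WT (SE 0.0569, adjusted p = 3.81e-05), while the *sis2*Δ value was -0.10 (adjusted p = 0.173). The mitochondrial *ADH3*, at 445 to 554 CPM, had log2 fold changes of 0.15 in *sis2*Δ (adjusted p = 0.0729, or 0.00639 without *sis2*Δ replicate 2 at 0.5 mM KCl) and 0.16 in WT (adjusted p = 0.0636, or 0.0229 and 0.0442 without *sis2*Δ replicates 2 and 3 at 0.5 mM KCl). Its WT value was also called with DESeq2 (adjusted p = 0.0437) and with only the compared libraries (adjusted p = 0.0284).

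Among enzymes that oxidize acetaldehyde to acetate, *ALD4*, the main mitochondrial one, had 338, 342 and 370 CPM in *sis2*Δ and 289, 291 and 311 CPM in WT at 0.5 mM KCl. In 7.35 mM KCl these were 269, 221.5 and 208 CPM in *sis2*Δ and 156, 160.4 and 148 CPM in WT. It rose by 0.59 in *sis2*Δ (SE 0.0769, adjusted p = 2.86e-06) and by 0.94 in WT (SE 0.0776, adjusted p = 2.31e-09). *ALD5*, also mitochondrial, lay between 128 and 191 CPM and rose by 0.30 in *sis2*Δ (adjusted p = 0.000263) and by 0.41 in WT (adjusted p = 5.87e-06). Both genes together rose by 0.49 in *sis2*Δ (SE 0.0625, adjusted p = 1.95e-06) and by 0.72 in WT (SE 0.0627, adjusted p = 5.77e-09).

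The main cytosolic enzyme, *ALD6*, went down in WT. It had 1234, 1114 and 1304 CPM in *sis2*Δ and 1242, 1090 and 1374 CPM in WT at 0.5 mM KCl. The 7.35 mM KCl cultures had 1407, 1334 and 1354 CPM in *sis2*Δ and 1384, 1537 and 1571 CPM in WT. Its log2 fold change was -0.17 in *sis2*Δ (adjusted p = 0.0951) and -0.28 in WT (SE 0.0794, adjusted p = 0.00658), and the WT call was lost without WT replicate 2 at 0.5 mM KCl (-0.19, adjusted p = 0.0671). *ALD3*, known to be induced by stress, had 28.2, 26.3 and 36.5 CPM in *sis2*Δ and 27.5, 22.5 and 23.1 CPM in WT at 0.5 mM KCl. The values at 7.35 mM KCl were 13.1, 12.3 and 13.2 CPM in *sis2*Δ and 14.2, 13.4 and 11.6 CPM in WT. It rose by 1.24 in *sis2*Δ (SE 0.104, adjusted p = 4.39e-09) and by 0.90 in WT (SE 0.105, adjusted p = 4.63e-07).

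Its near copy *ALD2*, at 25.0 to 33.8 CPM, overlapped between the concentrations and rose by 0.21 in *sis2*Δ (adjusted p = 0.0297), against 0.08 in WT (adjusted p = 0.407). The *ALD2* call was lost without *sis2*Δ replicates 1 or 3 at 0.5 mM KCl or 2 or 3 at 7.35 mM KCl (adjusted p of 0.0712 to 0.16) and with library totals in place of TMM (adjusted p = 0.0553). *ACS2*, the acetyl-CoA synthetase used on glucose, was not called in either strain (adjusted p of 0.263 and 0.408).

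Pyruvate carboxylase makes oxaloacetate for biosynthesis and has 2 isozymes. *PYC1* (YGL062W, chrVII:385196-388732) had 503, 584 and 576 CPM in *sis2*Δ and 606, 501 and 379 CPM in WT at 0.5 mM KCl. At 7.35 mM KCl it had 653, 452 and 328 CPM in *sis2*Δ and 305, 156.5 and 136 CPM in WT. The WT libraries did not overlap between the concentrations, while the *sis2*Δ libraries did. *PYC1* rose by 1.31 in WT (SE 0.234, adjusted p = 9.24e-05), and its log2 fold change in *sis2*Δ was 0.22 (SE 0.229, adjusted p = 0.463). The standard error of *PYC1* was the largest of the 39 genes in each comparison. *PYC2*, at 188 to 253 CPM, was not called in either strain.

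Glycerol 3-phosphate dehydrogenase diverts carbon to glycerol and reoxidizes NADH. *GPD1*, the isozyme known from osmotic stress, had 309, 282.5 and 287 CPM in *sis2*Δ and 312, 302.5 and 355 CPM in WT at 0.5 mM KCl. In 7.35 mM KCl these were 203, 197 and 210 CPM in *sis2*Δ and 241, 274 and 234 CPM in WT. It rose by 0.53 in *sis2*Δ (SE 0.0712, adjusted p = 4.49e-06) and by 0.37 in WT (SE 0.071, adjusted p = 0.000204). *GPD2*, known from growth without oxygen, was not called, with log2 fold changes of 0.01 in *sis2*Δ and -0.10 in WT. The WT value of *GPD2* was -0.21 and called (adjusted p = 0.0156) without WT replicate 1 at 0.5 mM KCl.

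Summing the isozymes of a step showed which steps changed as a whole. Beside the sums given above, 6-phosphofructo-2-kinase rose by 0.45 in *sis2*Δ (adjusted p = 9.35e-06) and by 0.53 in WT (adjusted p = 7.95e-07), and pyruvate decarboxylase by 0.42 in *sis2*Δ (adjusted p = 2.31e-05) and by 0.24 in WT (adjusted p = 0.00557). Pyruvate kinase rose in *sis2*Δ by 0.23 (adjusted p = 0.0137, or 0.085 without replicate 1 at 0.5 mM KCl and 0.0786 without replicate 3 at 7.35 mM KCl) and had a value of 0.08 in WT (adjusted p = 0.38). Pyruvate carboxylase had a value of 0.16 in *sis2*Δ (adjusted p = 0.398) and rose by 0.80 in WT (adjusted p = 0.000163). Glycerol 3-phosphate dehydrogenase rose by 0.25 in *sis2*Δ (adjusted p = 0.00353) and had a value of 0.12 in WT (adjusted p = 0.148).

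Cytosolic aldehyde dehydrogenase fell in WT by 0.25 (adjusted p = 0.0109, or 0.0929 without WT replicate 2 at 0.5 mM KCl), with a value of -0.13 in *sis2*Δ (adjusted p = 0.169). The sum of the alcohol dehydrogenases was led by *ADH1* and passed the threshold in *sis2*Δ (0.21, adjusted p = 0.047), but not with DESeq2 size factors (adjusted p = 0.053), with the replicate block (adjusted p = 0.052), without *sis2*Δ replicates 1 or 3 at either concentration (adjusted p of 0.0845 to 0.211) or without any of the 6 WT libraries (adjusted p of 0.0544 to 0.0636). The sums for 6-phosphofructokinase, phosphoglycerate mutase and enolase were called in neither strain.

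**Figure D3:**
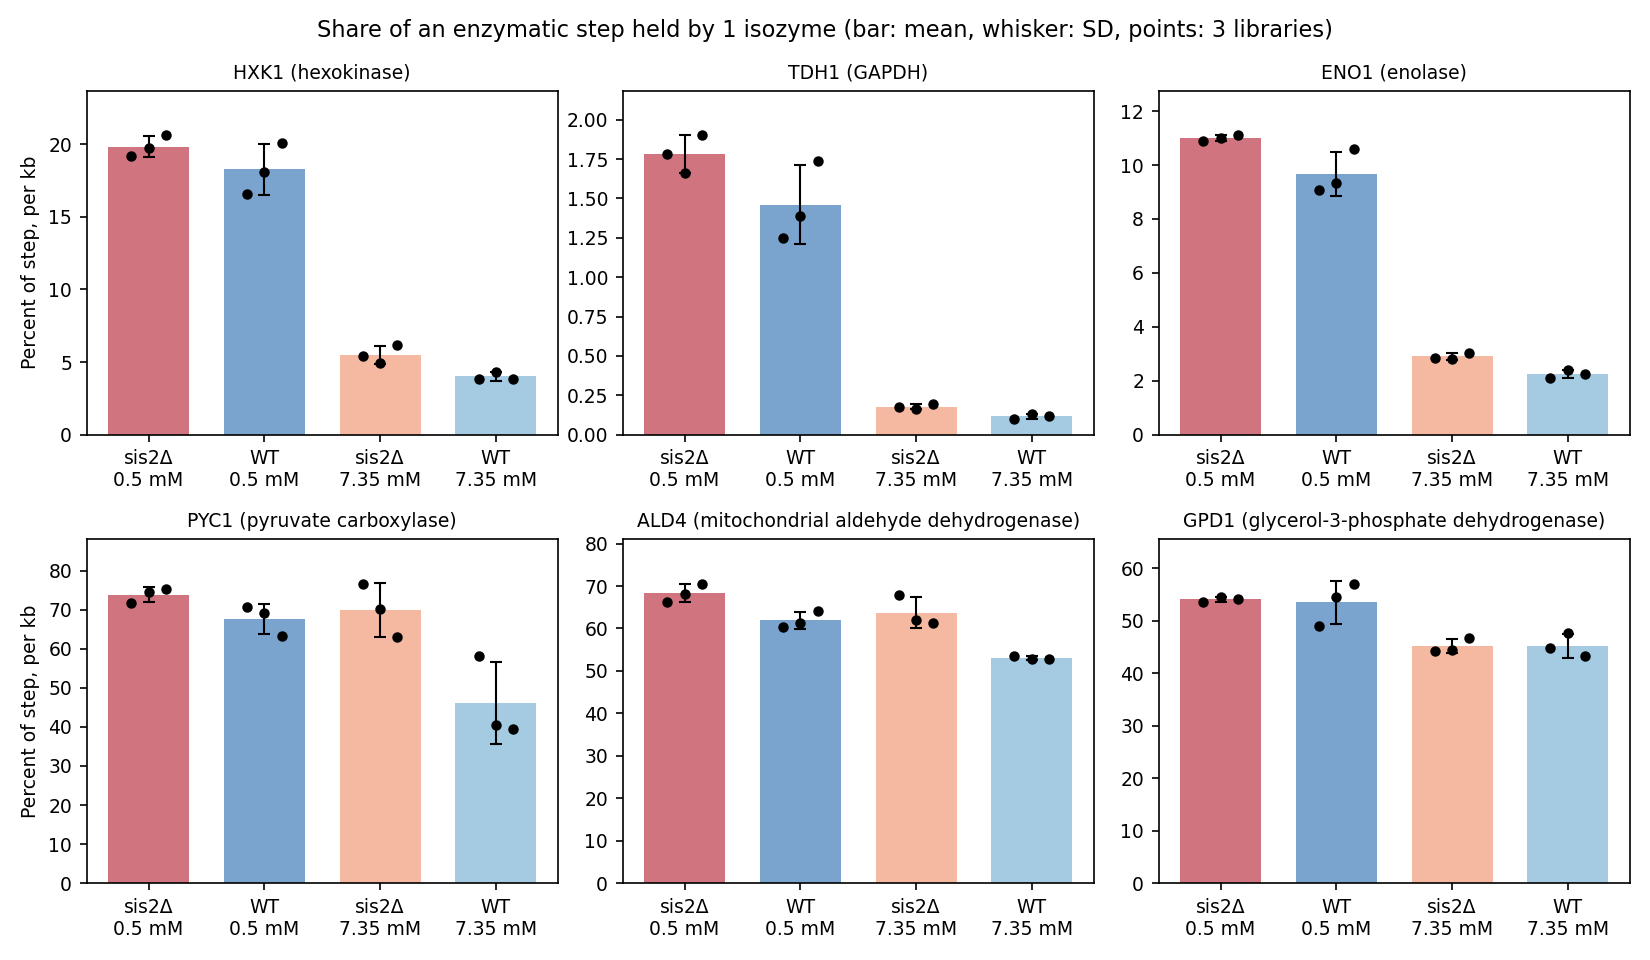
Percent of the RNA of an enzymatic step, per kb of coding length (y axis, from 0), held by *HXK1*, *TDH1*, *ENO1*, *PYC1*, *ALD4* and *GPD1* in *sis2*Δ and WT at 0.5 and then 7.35 mM KCl (x axis), with bars at the mean, whiskers for the SD and points for 3 libraries. The *HXK1*, *TDH1* and *ENO1* shares are higher in all low-potassium libraries, and the *PYC1* share is lowest in WT at 7.35 mM KCl, at 46 ± 10.4%.

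At standard potassium, fewer of these genes differed between the strains than between the concentrations, with *PYC1*, *TDH1* and *ALD4* the highest in the mutant. In *sis2*Δ against WT at 7.35 mM KCl, 6 of the 39 genes rose (*PYC1*, *TDH1*, *ALD4*, *HXK1*, *ENO1* and *PFK27*) and 6 fell (*PDC5*, *GPD1*, *GPD2*, *TPI1*, *PGI1* and *ADH4*). Among all genes tested, 6.38% rose and 7.04% fell. The median log2 fold change of the 39 genes was -0.05, with 10 values above 0 and 29 below, against 0.00 over all genes. It was -0.02 without WT replicate 2 or *sis2*Δ replicate 3 at 7.35 mM KCl. The strains did not overlap for 16 of the 39 genes, against 32.2% of all genes. This comparison and the WT comparison of potassium concentrations use the same WT libraries at 7.35 mM KCl, so their values are not independent. In that WT comparison the 6 genes that rose had values of 0.63 to 3.92. Of the 6 that fell, *ADH4* was lower (-0.35) and *GPD1* higher (0.37) at low potassium, and the other 4 had values of -0.19 to -0.10 and were not called.

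*PYC1* differed most between the strains, with 653, 452 and 328 CPM in *sis2*Δ and 305, 156.5 and 136 CPM in WT at 7.35 mM KCl. It was higher in *sis2*Δ by 1.26 on the log2 scale (SE 0.233, adjusted p = 0.000933). The labels number the cultures by a batch field, and within batches the log2 ratio of *sis2*Δ to WT was 1.10, 1.53 and 1.27, so that the mutant was higher in 3 of 3. *PYC1* made up 69.9 ± 6.89% of pyruvate carboxylase RNA per kb in *sis2*Δ and 46 ± 10.4% in WT. *PYC2* was lower in *sis2*Δ by 0.17, which was not called (adjusted p = 0.072, or 0.0412 with the replicate block and 0.0463 with DESeq2). The sum of both genes was higher in *sis2*Δ by 0.68 (SE 0.149, adjusted p = 0.00394).

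*ALD4* (YOR374W, chrXV:1039840-1041399) had 269, 221.5 and 208 CPM in *sis2*Δ and 156, 160.4 and 148 CPM in WT, and was higher in *sis2*Δ by 0.59 (SE 0.0773, adjusted p = 2.39e-05). Mitochondrial aldehyde dehydrogenase as a sum was higher in *sis2*Δ by 0.32 (SE 0.0626, adjusted p = 0.00153). *TDH1* had 71.2, 81.8 and 86.0 CPM in *sis2*Δ and 44.2, 54.8 and 48.2 CPM in WT, a difference of 0.70 (SE 0.116, adjusted p = 0.000319). *HXK1* had 107, 89.7 and 111 CPM in *sis2*Δ and 69.9, 82.8 and 69.3 CPM in WT, a difference of 0.47 (SE 0.0935, adjusted p = 0.00161). For these 3 genes and for *PYC1* the strains did not overlap and the call held in all 20 alternatives.

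The other 8 calls were small, at 0.23 to 0.33 on the log2 scale in size, and each was lost when a single library was left out. The number that fell was then 3 without WT replicates 1 or 2, 1 without *sis2*Δ replicate 2 and 2 without *sis2*Δ replicate 3 at 7.35 mM KCl, against 6 with all libraries. *ENO1* was higher by 0.33 (adjusted p = 0.0114), and not called without WT replicate 1 or *sis2*Δ replicates 2 or 3 at 7.35 mM KCl (adjusted p of 0.0505 to 0.058). *PFK27* was higher by 0.23 (adjusted p = 0.0358), and not called without WT replicates 2 or 3 or *sis2*Δ replicates 1 or 2 at 7.35 mM KCl (adjusted p of 0.0561 to 0.143) or with library totals (adjusted p = 0.082). *PDC5* had 20.0, 17.5 and 18.1 CPM in *sis2*Δ and 24.6, 23.2 and 20.6 CPM in WT and was lower in *sis2*Δ by 0.30 (adjusted p = 0.00724), but not called without WT replicate 1 (adjusted p = 0.066) or *sis2*Δ replicate 2 (adjusted p = 0.0579).

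Both glycerol 3-phosphate dehydrogenases were lower in *sis2*Δ at 7.35 mM KCl. *GPD1* had 203, 197 and 210 CPM in *sis2*Δ and 241, 274 and 234 CPM in WT (-0.30, SE 0.0711, adjusted p = 0.00802), and was not called without WT replicate 2 (-0.22, adjusted p = 0.0777) or *sis2*Δ replicate 2 (adjusted p = 0.0558). *GPD2* had 287, 278 and 269.8 CPM in *sis2*Δ and 336, 340.1 and 345 CPM in WT (-0.29, SE 0.0759, adjusted p = 0.0135), and was not called without *sis2*Δ replicates 2 or 3 (adjusted p = 0.0563 and 0.0698). Their sum was lower by 0.29 (SE 0.0648, adjusted p = 0.0042), a call that held when each library was left out.

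*TPI1* had 4828, 5196 and 4979 CPM in *sis2*Δ and 6045, 5848 and 6004 CPM in WT at 7.35 mM KCl (-0.25, SE 0.073, adjusted p = 0.0243), and leaving out any WT library or *sis2*Δ replicates 1 or 3 ended the call (adjusted p of 0.0601 to 0.0893). *PGI1* had 2150, 1831 and 1835 CPM in *sis2*Δ and 2254, 2384 and 2269 CPM in WT (-0.25, adjusted p = 0.041), and leaving out any WT library, *sis2*Δ replicates 2 or 3 at 7.35 mM KCl or *sis2*Δ replicate 1 at 0.5 mM KCl ended the call (adjusted p of 0.0591 to 0.196). *ADH4* had 74.8, 70.4 and 68.3 CPM in *sis2*Δ and 83.2, 83.2 and 84.4 CPM in WT (-0.23, SE 0.0568, adjusted p = 0.00891), and was not called without *sis2*Δ replicates 2 or 3 (adjusted p = 0.0503 and 0.0718).

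**Figure D4:**
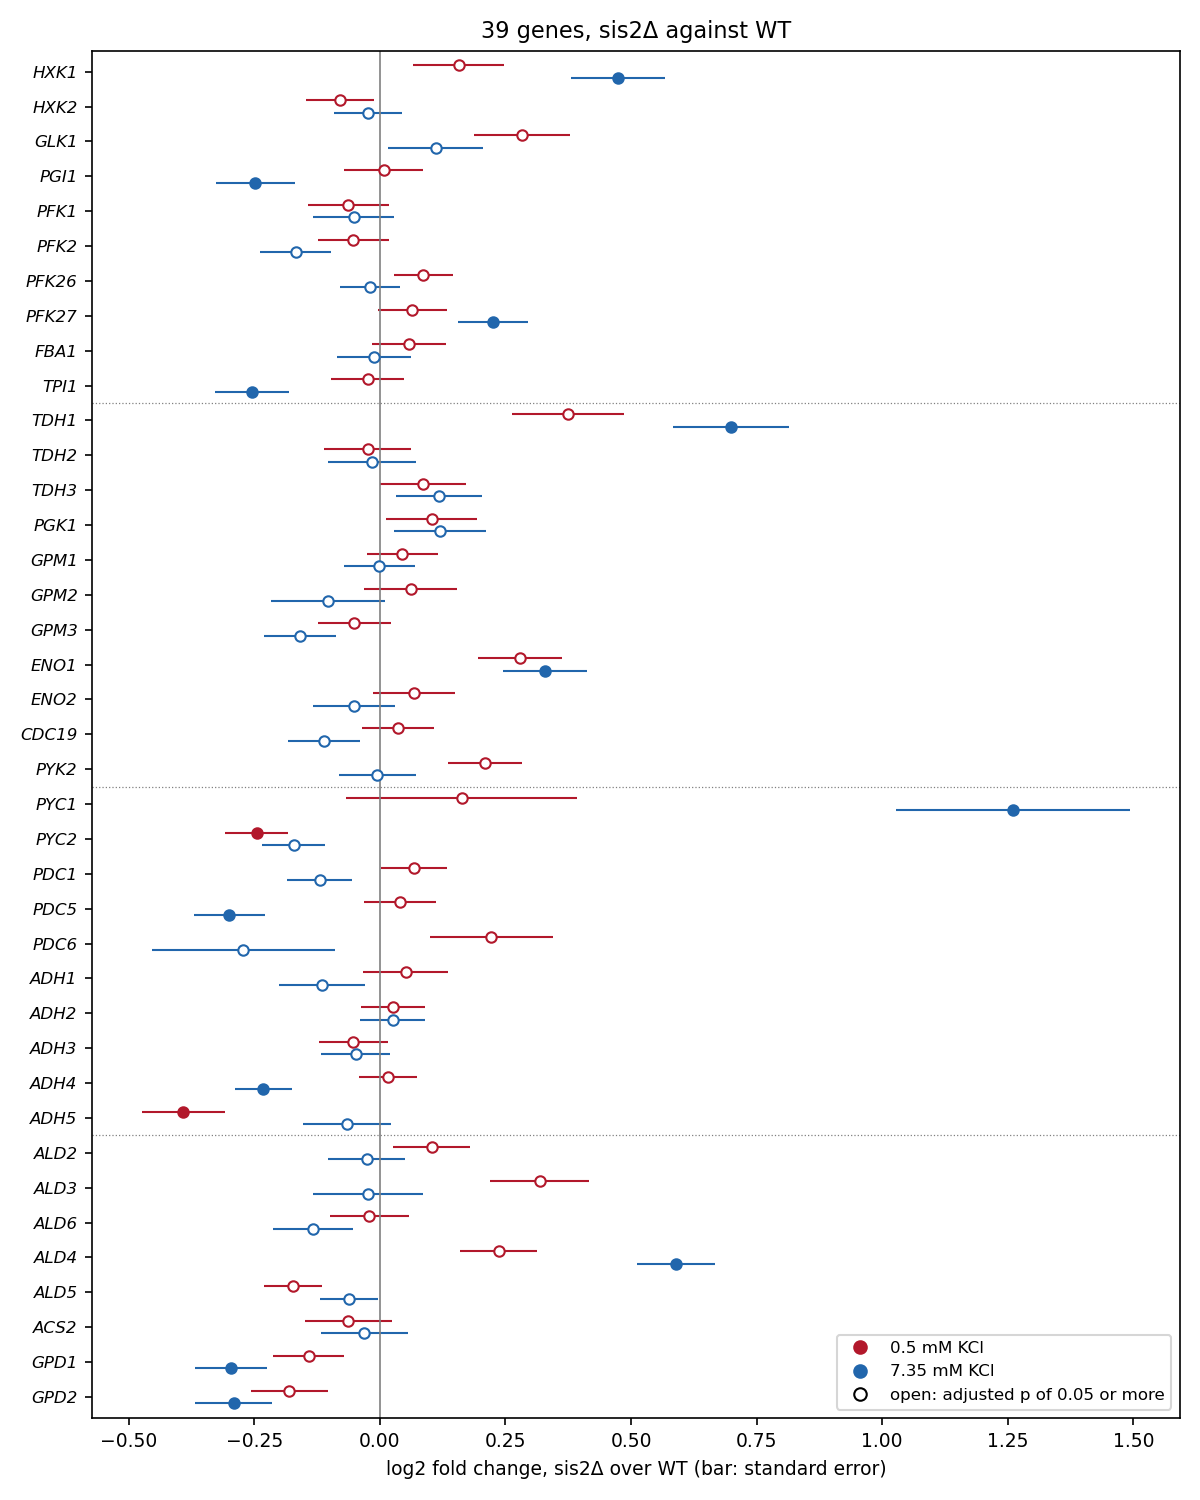
Log2 fold changes of *sis2*Δ over WT (x axis) for the 39 genes, grouped by role (y axis), at 0.5 mM KCl (red) and 7.35 mM KCl (blue), with standard errors as bars and open symbols where the adjusted p was 0.05 or more. *PYC1* at 7.35 mM KCl stands farthest to the right at 1.26, and at 0.5 mM KCl only *ADH5* and *PYC2* have filled symbols.

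At low potassium, 2 of the 39 genes, *ADH5* and *PYC2*, were lower in *sis2*Δ than in WT and none was higher. Among all genes tested, 1.20% rose and 0.583% fell. At an unadjusted p under 0.05 the counts were 6 higher and 4 lower. The shares of all genes given here are at the adjusted threshold and cannot be set beside these counts. DESeq2 called 1 gene, *ENO1*, higher. The strains did not overlap for 6 of the 39 genes, against 16.8% of all genes, and the median log2 fold change was 0.04, against 0.00 over all genes. Single libraries at 0.5 mM KCl moved that median: it was 0.02 without *sis2*Δ replicates 1 or 3, 0.08 without *sis2*Δ replicate 2 and 0.03 without WT replicate 2. With library totals the median was 0.02, against -0.02 over all genes. *ADH5* had 73.7, 59.1 and 79.0 CPM in *sis2*Δ and 100.6, 90.4 and 86.9 CPM in WT and was lower in *sis2*Δ by 0.39 (SE 0.0825, adjusted p = 0.0125), which was lost without WT replicate 1 (-0.33, adjusted p = 0.0973). *PYC2* had 199.7, 200.8 and 188 CPM in *sis2*Δ and 253, 224 and 220.2 CPM in WT and was lower by 0.25 (SE 0.0624, adjusted p = 0.0473).

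The *PYC2* call was lost in 10 of 20 alternatives: without WT replicates 1 or 2 at either concentration, *sis2*Δ replicates 1 or 3 at 0.5 mM KCl or *sis2*Δ replicates 2 or 3 at 7.35 mM KCl (adjusted p of 0.0513 to 0.302), with library totals (adjusted p = 0.0562) and with only the compared libraries (adjusted p = 0.0843). *PYC1*, so different at 7.35 mM KCl, had 503, 584 and 576 CPM in *sis2*Δ and 606, 501 and 379 CPM in WT at 0.5 mM KCl, and the log2 difference was 0.16 (SE 0.229, adjusted p = 0.787), with within-batch ratios of -0.27, 0.22 and 0.60.

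Replicate 2 of *sis2*Δ at 0.5 mM KCl decided how many genes were called. Without it, the mutant had more RNA of 5 of the 39 genes at 0.5 mM KCl: *TDH1* by 0.52 (adjusted p = 0.00524), *GLK1* by 0.42 (adjusted p = 0.00282), *ALD3* by 0.41 (adjusted p = 0.0192), *ENO1* by 0.38 (adjusted p = 0.00576) and *PYK2* by 0.30 (adjusted p = 0.0121). With all libraries these values were 0.37, 0.28, 0.32, 0.28 and 0.21, and none was called (adjusted p of 0.1 to 0.178). Over all genes, in both directions together, 440 were called in that comparison without the replicate, against 119 with it. *TDH1* was also called without WT replicate 3 at 0.5 mM KCl (0.48, adjusted p = 0.0418), and *ALD4* (0.24, adjusted p = 0.143) without *sis2*Δ replicate 1 at 7.35 mM KCl (0.24, adjusted p = 0.0378). In the comparison of concentrations within *sis2*Δ, 27 of the 39 genes rose without *sis2*Δ replicate 2 at 0.5 mM KCl, against 23 with it. The genes added were *TDH3*, *TPI1* (0.19, adjusted p = 0.00931), *GPM1* (0.20, adjusted p = 0.011) and *ADH3*. Over all genes, in both directions together, 3116 were called in that comparison without the replicate, against 3073 with it.

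**Figure D5:**
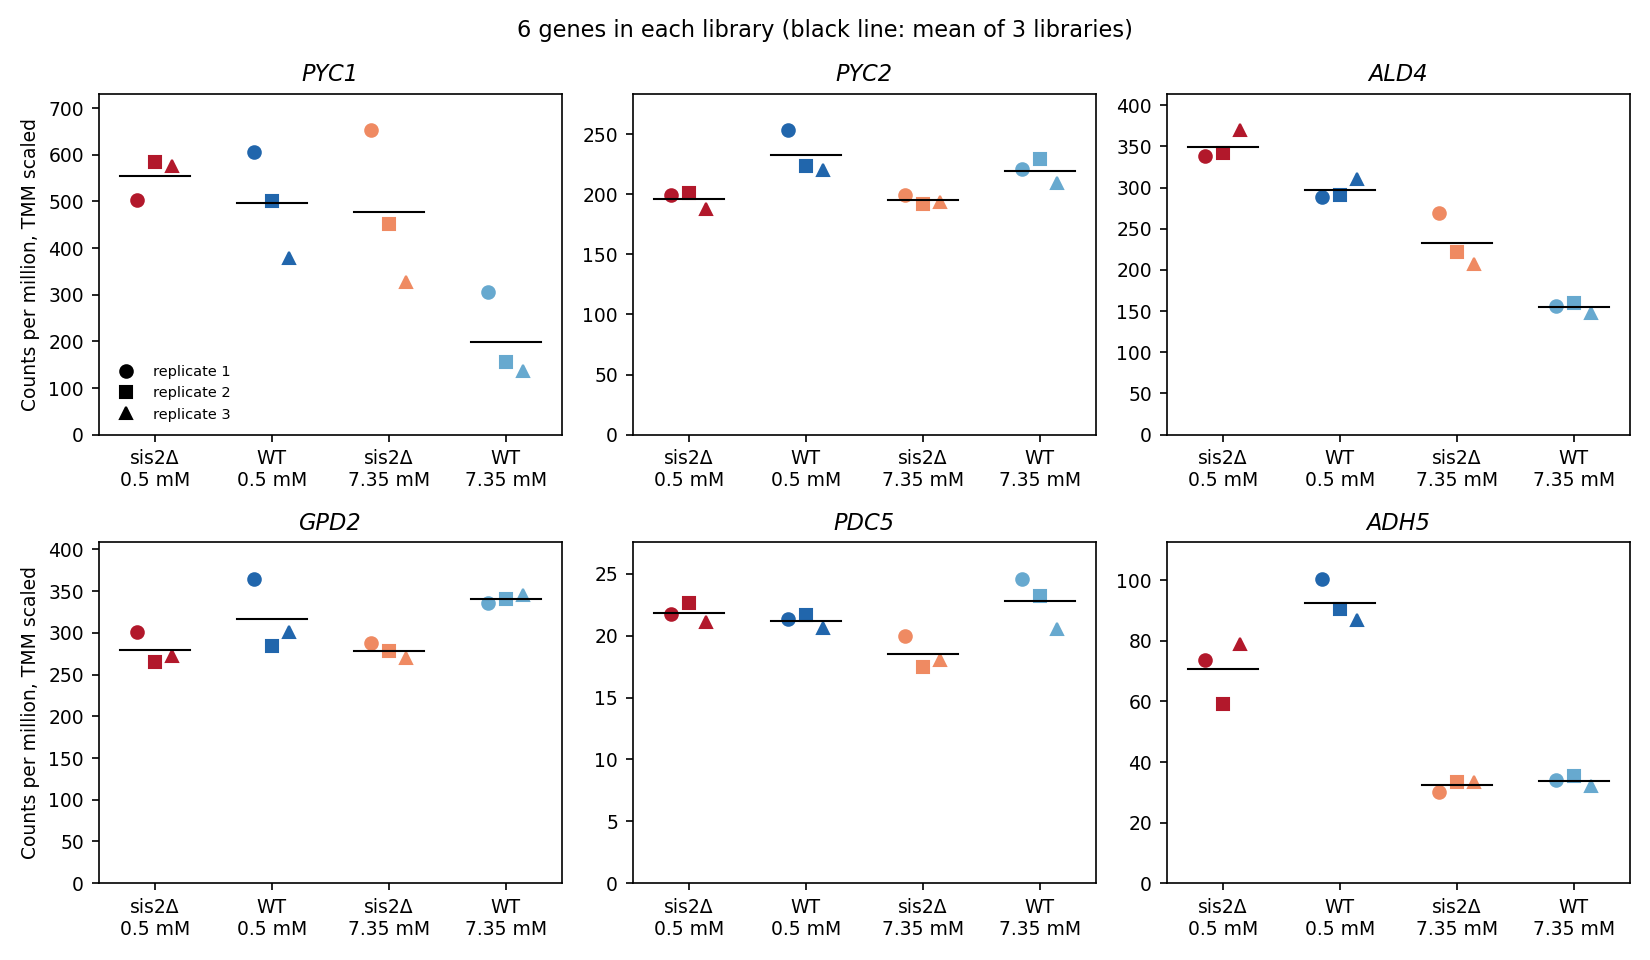
CPM (y axis, from 0) of *PYC1*, *PYC2*, *ALD4*, *GPD2*, *PDC5* and *ADH5* in each library of *sis2*Δ and WT at 0.5 and then 7.35 mM KCl (x axis), with symbols for the replicate number and black lines at the mean. *PYC1* is spread from 136 to 305 CPM in WT at 7.35 mM KCl and from 328 to 653 CPM in *sis2*Δ, while *GPD2* in WT at 7.35 mM KCl lies between 336 and 345 CPM.

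Whether the effect of the deletion differed between the concentrations was tested as an interaction, the log2 fold change of *sis2*Δ over WT at 0.5 mM KCl minus that at 7.35 mM KCl. None of the 39 genes was called in either direction by edgeR, against 1.70% of all genes above 0 and 1.03% below. At an unadjusted p under 0.05 there were 6 above and 4 below, which cannot be set beside those shares at the adjusted threshold. DESeq2 called 1 gene, *ALD4*, below 0. The median was 0.11, against 0.00 over all genes. It was 0.03 without WT replicate 2 at 0.5 mM KCl, 0.05 without *sis2*Δ replicates 1 or 3 at 0.5 mM KCl and 0.06 without WT replicate 2 or *sis2*Δ replicate 3 at 7.35 mM KCl. *PYC1* had the largest value, -1.10 (SE 0.325, adjusted p = 0.0735), which was called with the replicate block (-1.05, adjusted p = 0.0107) and without WT replicate 3 at 0.5 mM KCl (adjusted p = 0.0462), WT replicate 1 at 7.35 mM KCl (-1.55, adjusted p = 0.00166) or *sis2*Δ replicate 3 at 7.35 mM KCl (adjusted p = 0.0257).

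*PDC5* had an interaction of 0.34 (SE 0.1, adjusted p = 0.0724), called with the block (adjusted p = 0.0425) and without WT replicate 3 (0.40, adjusted p = 0.0294) or *sis2*Δ replicate 1 (adjusted p = 0.0435) at 7.35 mM KCl. *ALD4* had -0.35 (SE 0.109, adjusted p = 0.0867), called without *sis2*Δ replicate 3 at 7.35 mM KCl (adjusted p = 0.0294), and *TPI1* had 0.23 (adjusted p = 0.288), called without *sis2*Δ replicate 2 at 0.5 mM KCl (0.31, adjusted p = 0.021). *ADH5*, which was lower in *sis2*Δ at 0.5 mM KCl, had -0.33 (adjusted p = 0.178), and *HXK1* and *TDH1* each had -0.32 (adjusted p = 0.235 and 0.351). Pyruvate carboxylase as a sum had -0.64 (SE 0.21, adjusted p = 0.116, or 0.0252 with the block).

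Neighbouring pathways were described from lists of genes outside the 39, and their counts at low potassium stand beside 24.2% of all genes that rose and 21.7% that fell in *sis2*Δ and 24.1% and 23.2% in WT. Of 11 genes of the pentose phosphate pathway, which makes NADPH, 8 rose and 2 fell at low potassium in *sis2*Δ and 7 rose and 2 fell in WT. *NQM1*, the minor transaldolase, rose by 1.82 in *sis2*Δ (adjusted p = 9.62e-14) and by 1.71 in WT (adjusted p = 2.24e-13), and *SOL4*, a minor 6-phosphogluconolactonase, by 1.41 (adjusted p = 1e-09) and 1.19 (adjusted p = 1.51e-08). The largest fall in that list was *RPE1*, ribulose-phosphate epimerase, by 0.45 in *sis2*Δ (adjusted p = 0.000143) and by 0.50 in WT (adjusted p = 3.69e-05). None of the list was called between the strains at either concentration.

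Of 11 genes of pyruvate dehydrogenase and pyruvate entry into mitochondria, 5 rose in each strain at low potassium, against 24.2% of all genes in *sis2*Δ and 24.1% in WT, and none fell. *PKP2*, a kinase of the dehydrogenase complex, rose by 0.77 in *sis2*Δ (adjusted p = 4.18e-09) and by 1.00 in WT (adjusted p = 6.26e-11). *MPC3*, the pyruvate carrier subunit known from respiratory growth, rose by 0.82 in *sis2*Δ (adjusted p = 2.26e-06) and by 0.97 in WT (adjusted p = 3.03e-07). Between the strains at 7.35 mM KCl, where 6.38% of all genes were higher, the mutant had more RNA of 2 of the 11, *MPC3* by 0.41 (adjusted p = 0.0219) and *PKP2* by 0.21 (adjusted p = 0.0401). *MPC3* was not called without WT replicates 1 or 2 or *sis2*Δ replicates 1 or 2 at 7.35 mM KCl (adjusted p up to 0.0932), nor *PKP2* without WT replicates 1 or 2 or *sis2*Δ replicates 2 or 3 (adjusted p up to 0.141).

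In the rest of the glycerol branch, 5 of 6 genes rose in *sis2*Δ and 2 of 6 in WT at low potassium, and none fell. Among all genes 24.2% rose in *sis2*Δ and 24.1% in WT, so that the count in WT lay near the share of all genes. *GCY1*, a glycerol dehydrogenase, rose by 1.40 in *sis2*Δ (adjusted p = 1.35e-12) and by 1.33 in WT (adjusted p = 3.72e-12), and *GPP2*, a glycerol 3-phosphate phosphatase, by 1.17 (adjusted p = 5.96e-12) and 1.22 (adjusted p = 2.51e-12). In contrast to *GPD1* and *GPD2*, *GPP2* was higher in *sis2*Δ than in WT at 7.35 mM KCl, by 0.31 (adjusted p = 0.0033). At 0.5 mM KCl the difference was 0.26 (adjusted p = 0.0453), and it was not called in 11 of 20 alternatives, with an adjusted p of up to 0.252 when a library was left out. The more abundant isozyme *GPP1* went the other way at 7.35 mM KCl. It had 1210, 1064 and 1057 CPM in *sis2*Δ and 1224, 1279 and 1393 CPM in WT, without overlap, but was not called.

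The remaining lists are short, and among all genes 24.2% rose and 21.7% fell in *sis2*Δ and 24.1% and 23.2% in WT. Of 4 transcription factors of glycolytic genes, *TYE7* rose by 0.43 in *sis2*Δ (adjusted p = 1.15e-05) and by 0.35 in WT (adjusted p = 0.000127), and in each strain 2 of the 4 rose and 1 fell. The gene that fell was *RAP1*, with a mean of 72.3 CPM in *sis2*Δ and 75.5 CPM in WT at 0.5 mM KCl. At 7.35 mM KCl its means were 82.05 CPM in *sis2*Δ and 92.4 CPM in WT. The 3 genes of gluconeogenic and acetate use all rose in both strains, among them *PCK1*, the phosphoenolpyruvate carboxykinase of gluconeogenesis, by 0.56 in *sis2*Δ (adjusted p = 1.35e-05) and by 0.52 in WT (adjusted p = 2.55e-05). Of 8 other paralogs and side enzymes, 3 rose and 2 fell in each strain, which is near the shares of all genes. *PGM2*, a phosphoglucomutase, rose by 1.87 in *sis2*Δ (adjusted p = 4.08e-12) and by 1.73 in WT (adjusted p = 1.26e-11). Its paralog *PGM1* had the higher mean CPM in every group, and in both strains that mean was lower at 0.5 than at 7.35 mM KCl. Of 3 regulators of pyruvate decarboxylase genes, 2 rose in *sis2*Δ and 1 in WT, with *THI2* at 0.70 in *sis2*Δ (adjusted p = 2.3e-06) and 0.40 in WT (adjusted p = 0.000956).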

How the data were processed

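RNA from 12 cultures was poly(A)-selected and made into strand-specific libraries. The authors deposited 1 table of expected counts, which are not all whole (40.11% are whole) and are not normalized. The submitters' processing notes name bcl2fastq, cutadapt 2.6, STAR 2.7.6a, featureCounts of Subread 1.6.2 and genome build R64; the counting settings and the annotation are not given in the sources used here, so how reads shared by paralogs were divided is unknown.

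Counts were rounded, filtered with filterByExpr and scaled by TMM in edgeR 4.0.16 (R 4.3.3). One quasi-likelihood fit over 12 libraries with 4 group terms, as in the study's model, gave 5 contrasts, with Benjamini-Hochberg adjustment over 6691 genes and a threshold of 0.05. SE is the absolute log2 fold change over the root of F. Isozymes of a step were also summed before the fit. The edgeR fit of single genes, without the sums, was tested on simulated data. Alternatives were DESeq2 1.42.0, other scalings, filters and thresholds, a replicate block, a fit of the compared libraries alone, and each library left out.

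The labels give the replicate number as a batch, which pairs the cultures across groups. Deviations from group means correlated with a median of 0.0576 over 18 same-numbered pairs (-0.0996 to 0.279, 5 above 0.1) and -0.0343 over 36 others (-0.227 to 0.2, 2 above 0.1). Chi-square per degree of freedom between replicates was 8.17 to 46.8 over 12 pairs, so replicates differed by more than sampling noise.

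Values are given for every library of the comparison for genes among the 4 largest changes per direction and comparison (mean count 50 or more). *GPM3* is an exception and is given as a range. Other isozymes of those steps are given by library, by range or by fold change. The 39 genes and all lists were chosen with earlier results of these data known. Sequences are from the R64 RefSeq genome, read with Python 3.11.15.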

Additional observations from a re-analysis of the deposited data

Results flagged for a closer look

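*GUT1*, which encodes glycerol kinase, was the gene of the glycerol branch, outside the 39, for which the effect of the *SIS2* deletion differed between the concentrations by the edgeR interaction test, at 0.32 on the log2 scale (SE 0.078, adjusted p = 0.0248). It had 49.6, 48.4 and 51.7 CPM in *sis2*Δ and 52.9, 50.1 and 47.8 CPM in WT at 0.5 mM KCl, against 42.0, 41.2 and 40.4 CPM in *sis2*Δ and 51.5, 50.5 and 53.5 CPM in WT at 7.35 mM KCl. The strains overlapped at 0.5 mM KCl and did not at 7.35 mM KCl, where *GUT1* was lower in *sis2*Δ by 0.33 (adjusted p = 0.000322). The interaction was not called without WT replicates 2 or 3 at 0.5 mM KCl, WT replicate 3 at 7.35 mM KCl, *sis2*Δ replicates 1 or 3 at 0.5 mM KCl or *sis2*Δ replicates 2 or 3 at 7.35 mM KCl (adjusted p up to 0.0811).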

How the results depend on the processing

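Of 61 calls among the 39 genes in 5 comparisons, 43 held in all 20 alternatives, and no called value changed sign in any. The other 18 were each lost when a library was left out, most of them *sis2*Δ against WT, where 4 of 12 calls at 7.35 mM KCl and 0 of 2 at 0.5 mM KCl held. A further 21 values were called only in an alternative. With the replicate block, 1 call was lost (*ADH1* in *sis2*Δ at low potassium) and 4 values were added. Of those 4, 1 was higher and 1 lower in the interaction. No other call of the 39 genes changed. Among summed steps, pyruvate carboxylase was then called lower in the interaction (adjusted p = 0.0252). The alcohol dehydrogenase sum in *sis2*Δ at low potassium was no longer called (adjusted p = 0.052).

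Requiring an absolute log2 fold change of at least 0.5 left 3 higher and 0 lower of *sis2*Δ against WT at 7.35 mM KCl, 0 lower at 0.5 mM KCl, 12 higher and 0 lower at low potassium in WT and 11 higher in *sis2*Δ. An adjusted p under 0.01 left 3 lower between the strains at 7.35 mM KCl and 0 lower at 0.5 mM KCl. With library totals, 1 gene was lower between the strains at 0.5 mM KCl, and 6 in WT and 1 in *sis2*Δ were lower at low potassium. With only the compared libraries these were 1 between the strains at 0.5 mM KCl and 5 at low potassium in WT. DESeq2 called 1 gene higher between the strains at 0.5 mM KCl and 1 lower in the interaction.

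When each library was left out in turn, genes lower in *sis2*Δ than in WT ranged from 1 to 6 at 7.35 mM KCl and from 0 to 2 at 0.5 mM KCl, and genes higher at 0.5 mM KCl from 0 to 5. Genes lower at low potassium in WT ranged from 1 to 5, and interaction calls from 0 to 1 higher and 0 to 2 lower. Summed steps ranged from 5 to 10 higher at low potassium in *sis2*Δ, 0 to 1 lower in WT and 0 to 1 lower in the interaction. The cause was not tested. Over all genes, replicates differed by more than sampling noise. *PDC6* had only 33.83 to 74.67 counts in the libraries at 7.35 mM KCl. How far sequencing depth or the spread between cultures set the precision was not tested. Differences under about 0.2 on the log2 scale were rarely called.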
